A study of Mus musculus with 10 samples.

Results

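The matrix metalloproteinases (MMPs), the ADAMTS proteases and the tissue inhibitors of metalloproteinases (TIMPs) were described in irradiated stromal fibroblasts. Members were taken by name: each gene called Mmp, Adamts or Timp with its number that had a probeset carrying its symbol alone, read from the probeset with the highest mean over the 10 arrays. This gave 44 genes, of which 22 were MMPs, 18 ADAMTS proteases and 4 TIMPs, out of 19938 genes with a probeset of their own. Mmp15 and Adamts2 were not analysed here. RNA came from wild-type mouse embryonic fibroblasts (MEFs) that had received 1000 rad, no longer divided and were kept until day 9 in medium with interleukin-3. In MEFs + ALL + nilotinib (3 arrays), acute lymphoblastic leukemia (ALL) cells grew across a Transwell membrane with 0.4 µm pores and the dish received 16 nM nilotinib, an inhibitor of the Abl kinase. In MEFs + ALL + DMSO (1 array), the same cells grew across the membrane with DMSO, the solvent of the drug. MEFs + nilotinib (3 arrays) and MEFs + DMSO (3 arrays) had no ALL cells. The ALL cells were of a single murine precursor B line that carries the Bcr/Abl oncogene. By the methods, the triplicates were separate dishes of MEFs, so p-values measure the spread between dishes, and other samples of MEFs + ALL + DMSO were left out because they were found to hold ALL cells.

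MMPs are zinc proteases that cut collagens, gelatin, elastin and other proteins around the cell, and most are secreted as inactive precursors. ADAMTS proteases carry thrombospondin repeats that hold them in the matrix, where different members trim procollagens, cleave the proteoglycans aggrecan and versican, or cut cartilage oligomeric matrix protein (COMP). TIMPs bind the active site of these enzymes, and fibroblasts are a main source of both the proteases and the inhibitors in connective tissue and bone marrow stroma. Arrays read the transcripts, not the amount or activity of the enzymes.

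The values are log2 probeset signals, and array medians lay between 6.94 and 7.01. All 10 fibroblast markers on the arrays were above 6.29 in every group, a level that marks the 95th percentile of 1193 olfactory and vomeronasal receptor probesets, whose genes are silent outside sensory neurons. The MEFs + ALL + DMSO array stood apart on the leading principal component (30.8% of the variance), with a score of -66.9 against -9.1 to 22.6 on the others. It also carried B-lineage transcripts: the signal summed over 10 B-lineage markers was 4610 there, against 658 to 825 in MEFs + ALL + nilotinib, 678 to 789 in MEFs + nilotinib and 734 to 809 in MEFs + DMSO. Summed over 7 pan-leukocyte genes, the signal was 10296 in MEFs + ALL + DMSO, 4039 to 4642 in MEFs + ALL + nilotinib, 3389 to 3982 in MEFs + nilotinib and 3362 to 3716 in MEFs + DMSO. The signal of 10 fibroblast markers was 49222 in MEFs + ALL + DMSO, 55048 to 56213 in MEFs + ALL + nilotinib, 51663 to 58519 in MEFs + nilotinib and 58781 to 60141 in MEFs + DMSO. The 8 macrophage markers were above the receptor level in every group, with sums of 6027 to 6616 in MEFs + ALL + nilotinib, 5769 in MEFs + ALL + DMSO, 5519 to 6500 in MEFs + nilotinib and 5570 to 6272 in MEFs + DMSO. Of 7 neutrophil markers, 1 exceeded it in MEFs + DMSO and 0 in each other group. In such bulk RNA, fewer cells of a type and less RNA per cell cannot be told apart. Replicate 2 of MEFs + ALL + nilotinib lay apart on the next component (18.9%), with a score of 50.0 against -17.0 to 13.1.

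**Figure D1:**
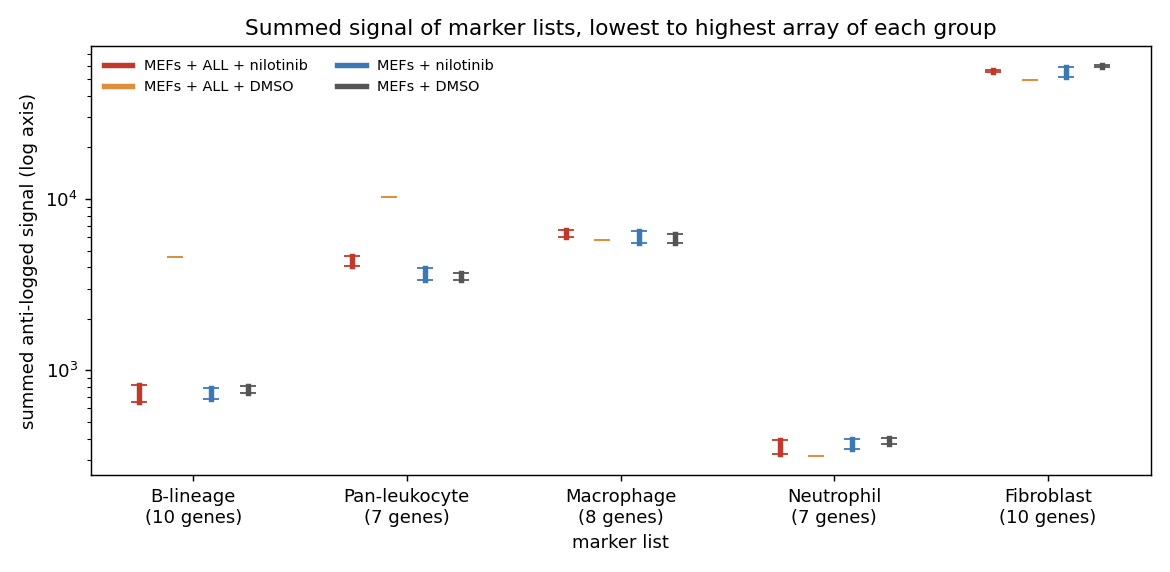
Anti-logged signal summed over the genes of each marker list (vertical log axis), drawn from the lowest to the highest array of each of the 4 groups. The single MEFs + ALL + DMSO array is the highest for the B-lineage list (4610) and the pan-leukocyte list (10296) and the lowest for the fibroblast list (49222).

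Of the 44 genes, 32 were above the receptor level of 6.29 in at least 1 group and 26 in every group. The 12 that were not above it in any group included the collagenases Mmp1a, Mmp1b and Mmp8, matrilysin (Mmp7), the enamel protease Mmp20, Mmp21, Mmp27, Adamts15, Adamts16, Adamts19, Adamts20 and the inhibitor Timp4. At or near the receptor level, a probeset cannot be read as expression of its gene, and 6 members crossed it between groups: Mmp3, Mmp9, Mmp10, Mmp25, Adamts13 and Adamts18. Adamts18, for example, averaged 6.30 ± 0.09 in MEFs + ALL + nilotinib and 6.77 ± 0.07 in MEFs + DMSO (SD, n = 3 each). It was below the level only on the single MEFs + ALL + DMSO array, at 5.97. Among the members above the level throughout were the gelatinase Mmp2, the membrane-anchored collagenase Mmp14, the aggrecanases Adamts1, Adamts4 and Adamts5, and Timp1, Timp2 and Timp3.

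**Figure D2:**
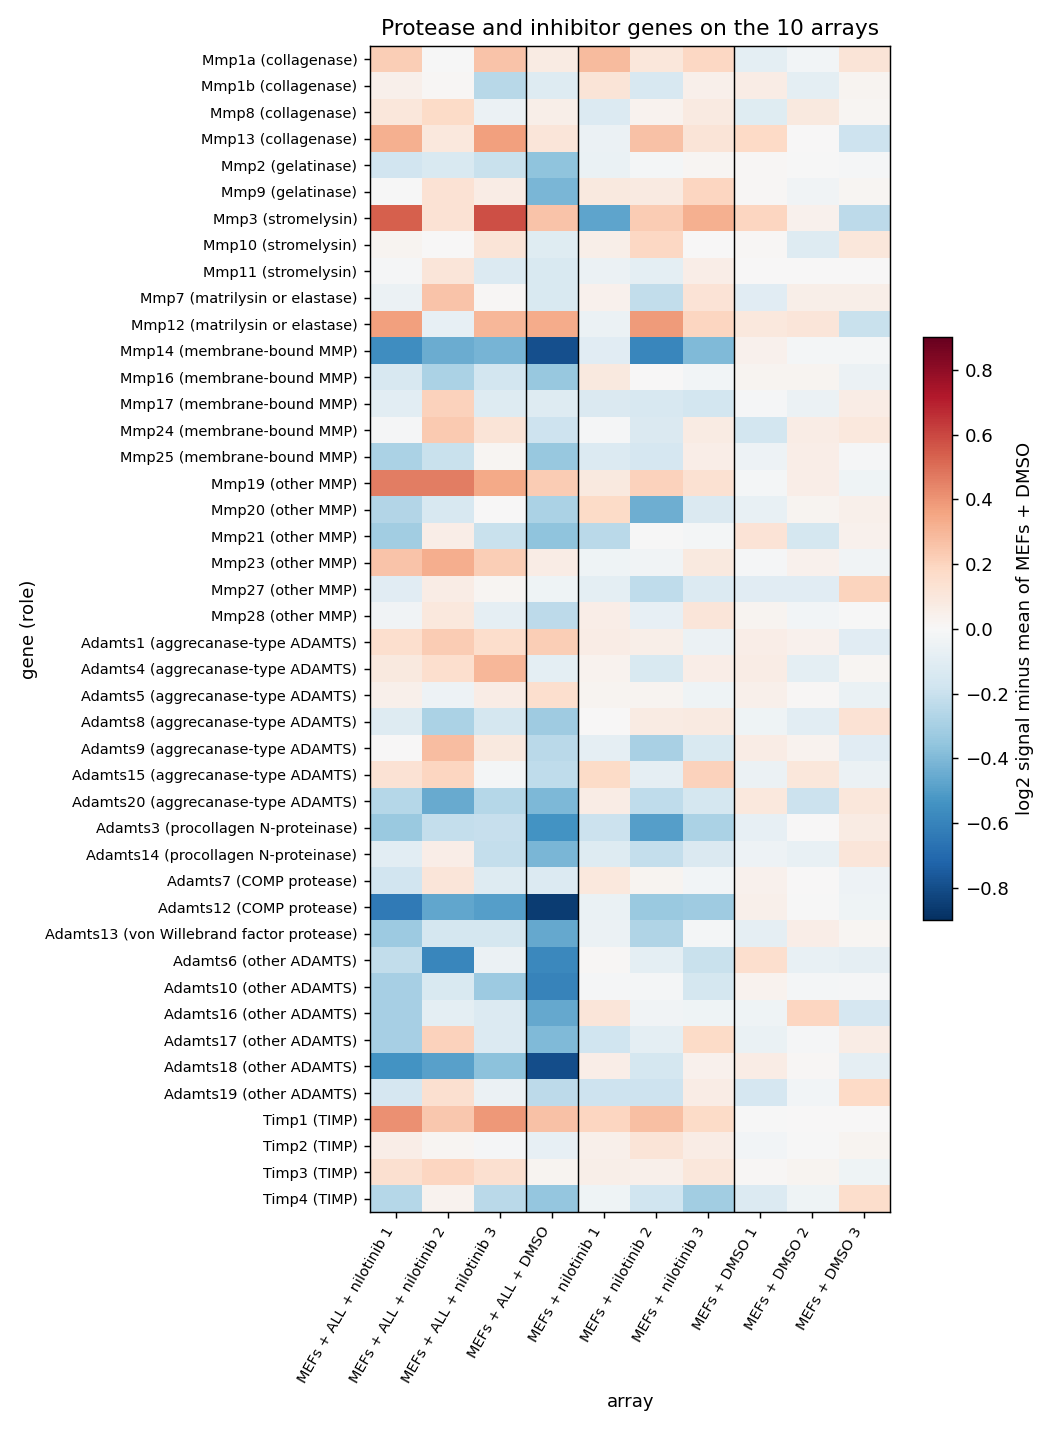
Each of the 44 genes (rows, with its role in brackets) on each of the 10 arrays (columns, by group), coloured by its log2 signal minus the mean of the 3 MEFs + DMSO arrays. The MEFs + ALL + DMSO column holds the deepest blue cells, for Adamts12, Adamts18 and Mmp14, while the Mmp19 row is red on all 3 MEFs + ALL + nilotinib arrays.

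The first question was how the stroma of nilotinib-treated ALL cells differed from stroma in solvent alone. Mmp19, a secreted MMP that degrades basement membrane components, rose by a log2 difference of 0.42, and Adamts12, a secreted protease that cleaves COMP, fell by 0.54. The other 42 members did not pass limma's test at an adjusted p under 0.05. The 2 members called were 4.55% of the 44, where 0.627% of all 35557 probesets were called (0.503% higher and 0.124% lower). At an unadjusted p under 0.05 there were 15 members (34.1%, 5 higher and 10 lower), where 16.2% of all probesets were found (9.5% higher and 6.72% lower). The median log2 difference of the 44 was -0.01, and that of all probesets was -0.004.

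Mmp19 had log2 signals of 9.81, 9.81 and 9.69 in MEFs + ALL + nilotinib, against 9.33, 9.41 and 9.31 in MEFs + DMSO. All 3 MEFs + ALL + nilotinib arrays lay above all 3 MEFs + DMSO arrays, and the difference was 0.42 (SE 0.07, limma adjusted p = 0.0391). The MEFs + ALL + DMSO array read 9.58 and MEFs + nilotinib 9.44, 9.56 and 9.49, values between those of the groups compared.

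Adamts12 had log2 signals of 10.11, 10.28 and 10.25 in MEFs + ALL + nilotinib, against 10.79, 10.74 and 10.71 in MEFs + DMSO. The groups did not overlap, and the signal fell by 0.54 on the log2 scale (SE 0.09, limma adjusted p = 0.0454), to 0.69 of the mean MEFs + DMSO signal. MEFs + nilotinib read 10.69, 10.41 and 10.43, below each MEFs + DMSO array and above each MEFs + ALL + nilotinib array.

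Both calls were lost when any of the 6 arrays compared was left out, with limma adjusted p from 0.0736 to 0.168 for Mmp19 and from 0.0666 to 0.169 for Adamts12. The differences then stayed between 0.40 and 0.46 for Mmp19 and between -0.57 and -0.49 for Adamts12. The lone MEFs + ALL + DMSO array adds nothing to the spread used in this comparison. The pan-leukocyte sums were 4039 to 4642 in MEFs + ALL + nilotinib and 3362 to 3716 in MEFs + DMSO, but limma called 1 of the 7 genes higher and the other 6 had an unadjusted p of 0.05 or more, with a median difference of 0.10 over the 7. The B-lineage sums overlapped, and the part of such transcripts in the differences was not tested.

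**Figure D3:**
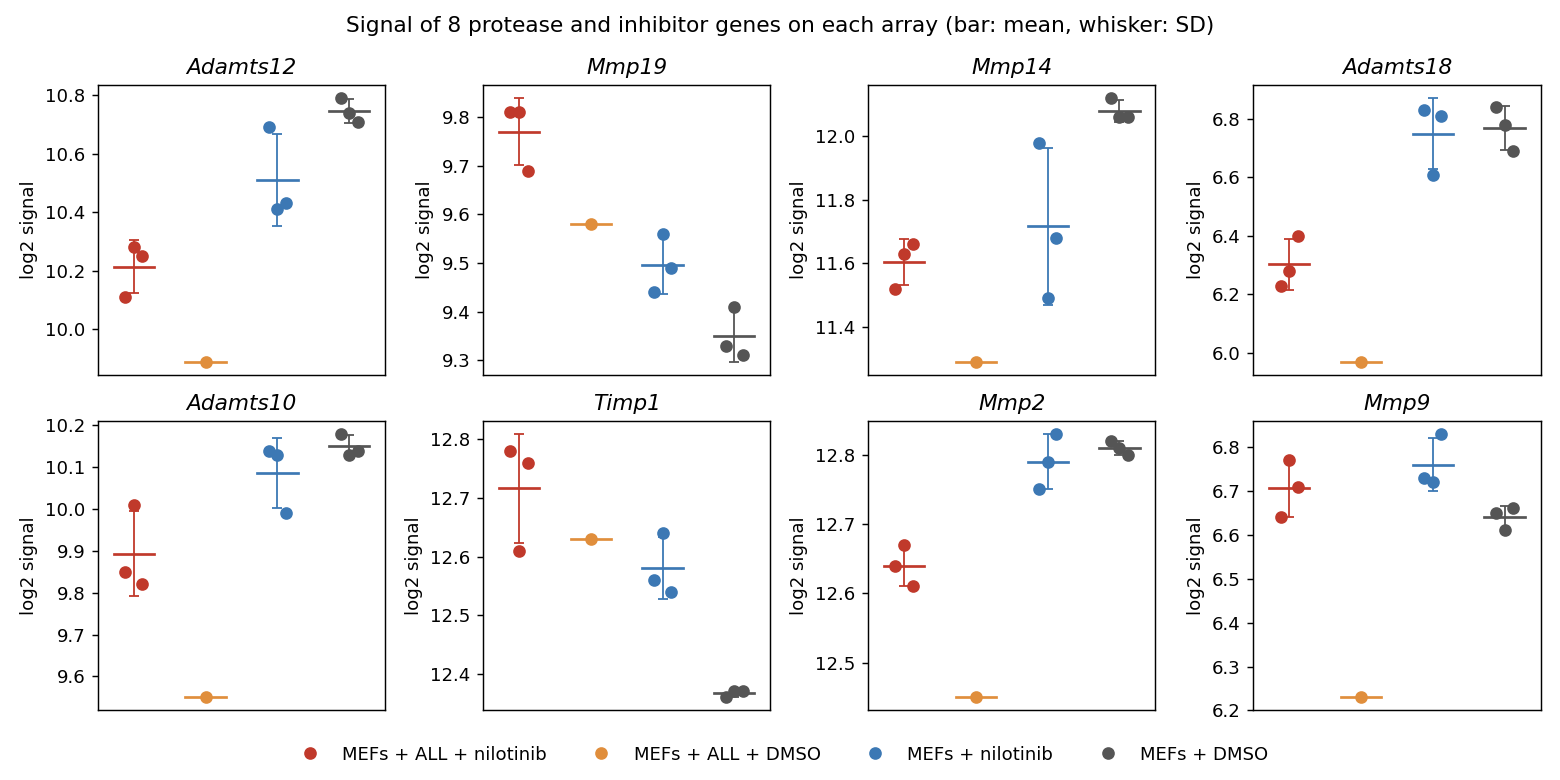
Log2 signal (vertical axes, which do not start at 0) of 8 genes on each array. Points are arrays, horizontal bars group means and whiskers the SD of groups with 3 arrays. For Adamts12 the MEFs + ALL + nilotinib arrays lie between 10.11 and 10.28 and the MEFs + DMSO arrays between 10.71 and 10.79, and the single MEFs + ALL + DMSO array is the lowest point of 6 of the 8 genes.

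Among the MMPs in this comparison, 11 differences were above 0 and 11 below, where 49% of all probesets were above 0 and 51% below. The gelatinase Mmp2, which cleaves denatured collagen and basement membrane collagen, read 12.64, 12.67 and 12.61 in MEFs + ALL + nilotinib and 12.82, 12.81 and 12.80 in MEFs + DMSO. These arrays did not overlap, but the difference of -0.17 did not pass (SE 0.05, limma adjusted p = 0.192). Mmp14, the membrane-anchored MMP that activates pro-Mmp2, read 11.52, 11.63 and 11.66 in MEFs + ALL + nilotinib and 12.12, 12.06 and 12.06 in MEFs + DMSO, a difference of -0.47 (SE 0.11, adjusted p = 0.116). Mmp16, another membrane-anchored MMP, differed by -0.19 (adjusted p = 0.206), and Mmp23, a membrane-tethered family member without the usual hemopexin domain, by 0.27 (adjusted p = 0.104). The other gelatinase, Mmp9, differed by 0.06 with overlapping arrays.

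The ADAMTS proteases had 13 differences below 0 and 5 above, with a median of -0.13. Adamts18 read 6.23, 6.28 and 6.40 in MEFs + ALL + nilotinib and 6.84, 6.78 and 6.69 in MEFs + DMSO, a difference of -0.47 (SE 0.08, adjusted p = 0.0573). Adamts10, which acts on fibrillin microfibrils, read 9.85, 10.01 and 9.82 in MEFs + ALL + nilotinib and 10.18, 10.13 and 10.14 in MEFs + DMSO, a difference of -0.26 (adjusted p = 0.153). Both genes were lower on every array with ALL cells and nilotinib, yet neither passed. At an unadjusted p under 0.05 there were also Adamts3 at -0.25, Adamts8 at -0.18, Adamts13 at -0.21 and Adamts20 at -0.32, and the sole one above 0 was the aggrecanase Adamts1 at 0.18. Adamts13 encodes the protease of von Willebrand factor, and its probeset, like that of Adamts20, lay near or below the receptor level. The aggrecanase Adamts5 differed by 0.02, with 11.56, 11.47 and 11.58 in MEFs + ALL + nilotinib and 11.56, 11.53 and 11.46 in MEFs + DMSO.

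Of the 4 TIMPs none passed. Timp1, a secreted inhibitor of most MMPs, read 12.78, 12.61 and 12.76 in MEFs + ALL + nilotinib and 12.36, 12.37 and 12.37 in MEFs + DMSO, a difference of 0.35 (SE 0.07, limma adjusted p = 0.0647). Timp3, which binds to the matrix and also inhibits several ADAM and ADAMTS proteases, read 12.83, 12.88 and 12.83 in MEFs + ALL + nilotinib and 12.70, 12.71 and 12.65 in MEFs + DMSO, a difference of 0.16 (adjusted p = 0.21). In both cases the 3 MEFs + ALL + nilotinib arrays lay above the 3 MEFs + DMSO arrays, and so did the 3 MEFs + nilotinib arrays. The MEFs + ALL + DMSO array read 12.63 for Timp1 and 12.71 for Timp3. Timp2, the inhibitor that also takes part in the activation of pro-Mmp2 by Mmp14, differed by 0.02 with overlapping arrays, and Timp4, below the receptor level, by -0.16. Over the whole family, arrays of these groups did not overlap for 16 members (36.4%, 6 higher and 10 lower), where 24.7% of all probesets did not overlap (14.1% higher and 10.6% lower).

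**Figure D4:**
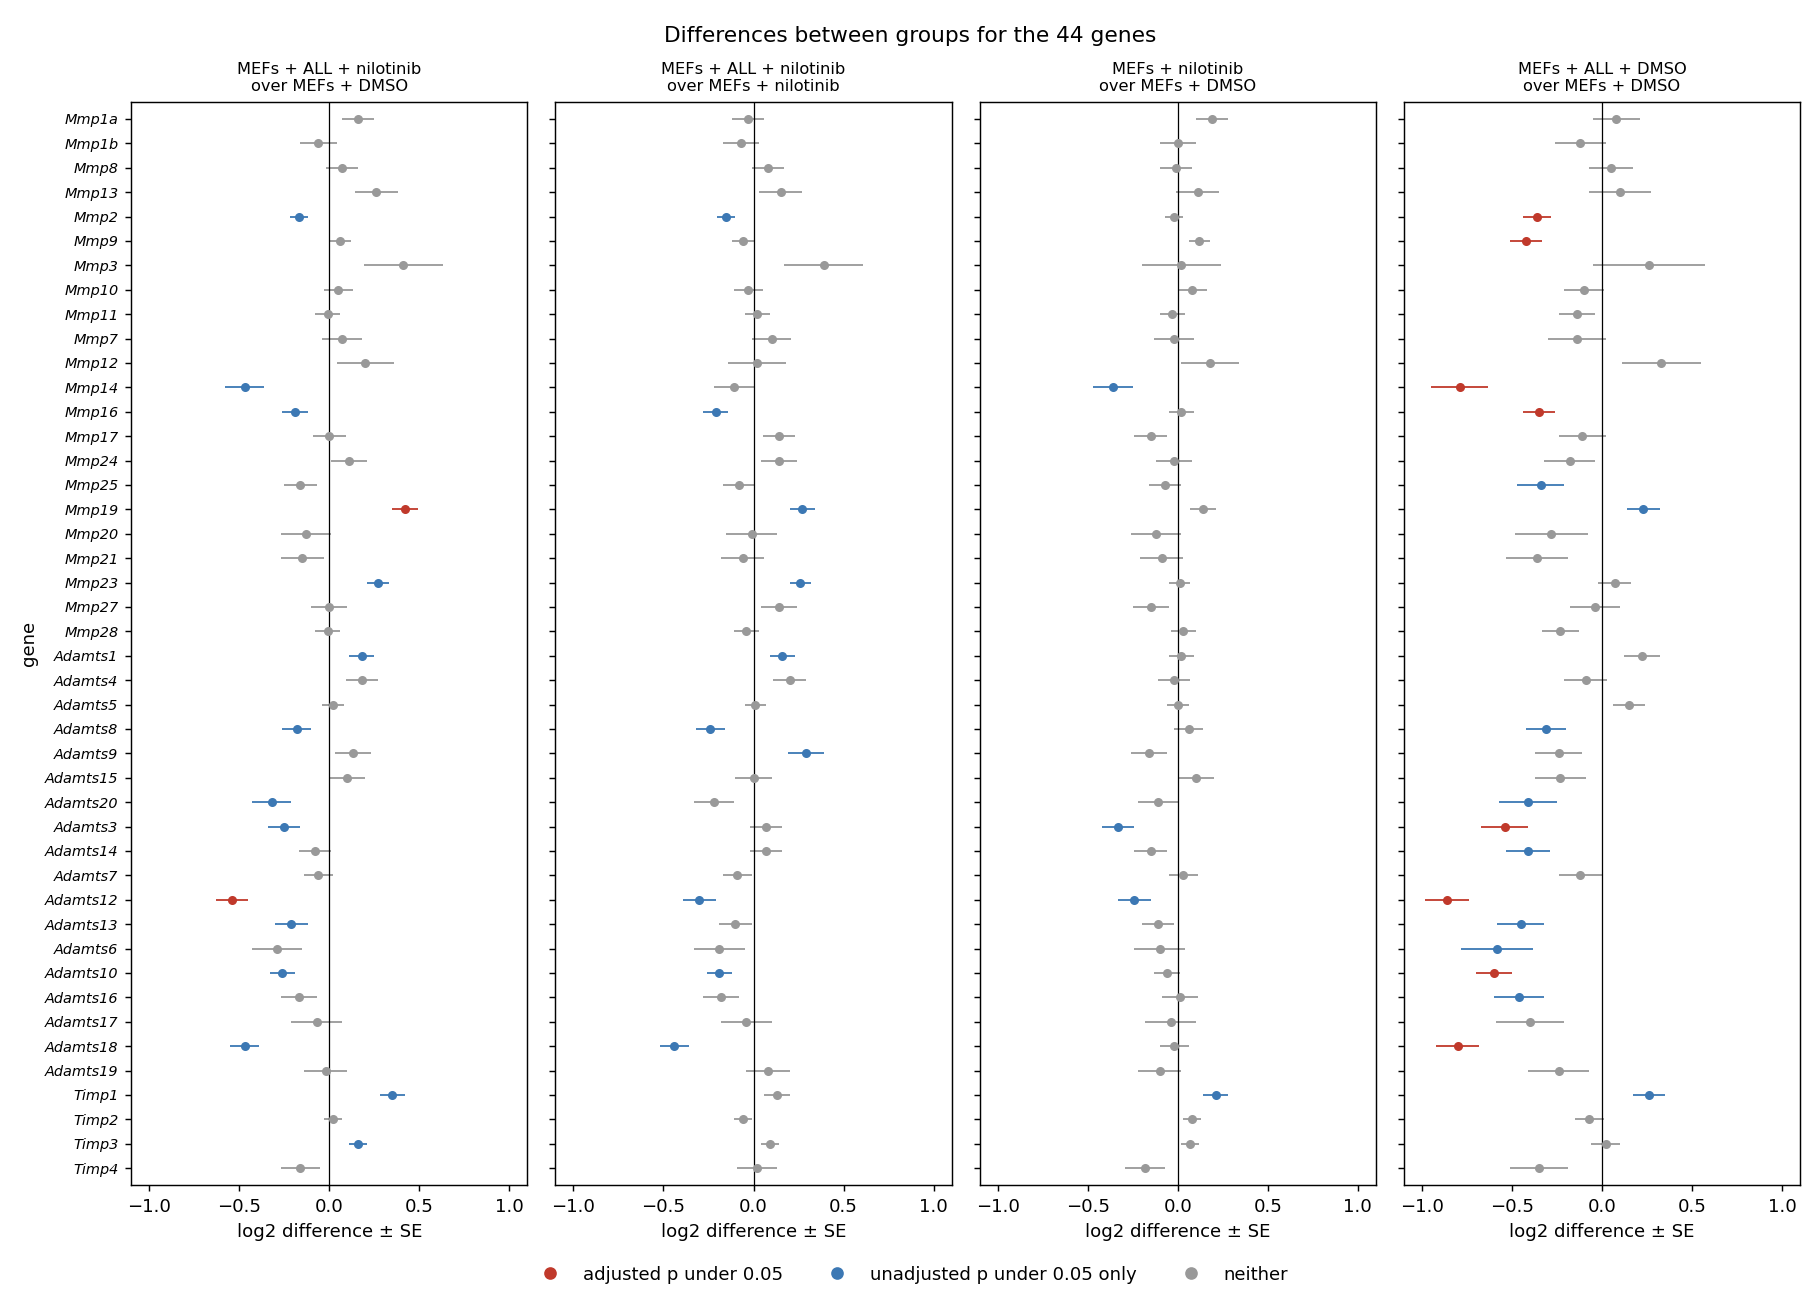
Log2 differences ± SE (horizontal axes) of the 44 genes (rows) in 4 comparisons, with red points at an adjusted p under 0.05, blue points at an unadjusted p under 0.05 alone and grey points for the rest. Red points are Mmp19 and Adamts12 in the leftmost panel, 0 genes in the middle panels and 8 genes, all left of 0, in MEFs + ALL + DMSO over MEFs + DMSO.

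With the drug on both sides, MEFs + ALL + nilotinib were compared with MEFs + nilotinib to ask what the ALL cells added. Limma called 0 of the 44 members, where 0.186% of all probesets were called, and 10 members (22.7%, 4 higher and 6 lower) had an unadjusted p under 0.05, where 9.27% of all probesets did (4.93% higher and 4.34% lower). The smallest adjusted p was 0.122, for Adamts18, which read 6.23, 6.28 and 6.40 in MEFs + ALL + nilotinib and 6.83, 6.61 and 6.81 in MEFs + nilotinib, a difference of -0.44. Mmp19 differed by 0.27 (adjusted p = 0.224), Mmp23 by 0.26 (0.22) and Adamts12 by -0.30 (0.338), and the arrays of these groups did not overlap for any of these genes. They did not overlap for 14 of the 44 members (31.8%), where 14.4% of all probesets did not overlap. The other members at an unadjusted p under 0.05 were Mmp2 at -0.15, Mmp16 at -0.21, Adamts8 at -0.24, Adamts10 at -0.19, Adamts1 at 0.16 and Adamts9 at 0.29. Mmp14 differed by -0.11 here, with the MEFs + nilotinib arrays at 11.98, 11.49 and 11.68 on both sides of the MEFs + ALL + nilotinib arrays, and Timp1 by 0.13.

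The drug alone was tested as MEFs + nilotinib over MEFs + DMSO, and limma called 0 members and 0 of all probesets. At an unadjusted p under 0.05 there were 4 members (9.09%), where 11.2% of all probesets were found. Mmp14 differed by -0.36 (SE 0.11, adjusted p = 0.369), Adamts3 by -0.33 (0.359), Adamts12 by -0.24 (0.396) and Timp1 by 0.21 (0.368). For each of these 4 genes the 3 arrays with nilotinib lay on a single side of the 3 MEFs + DMSO arrays. This held for 10 of the 44 members (22.7%), where it held for 20.6% of all probesets. The spread among the nilotinib arrays of Mmp14 was wide, since replicate 1 read 11.98, next to the MEFs + DMSO arrays at 12.06 to 12.12, and the others 11.49 and 11.68. The MEFs + DMSO arrays serve in both comparisons over MEFs + DMSO above and in the next one, so their differences for a gene are not independent of each other.

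The stroma of ALL cells given solvent was represented by 1 array, whose spread had to be taken from the other 3 groups. Against MEFs + DMSO, limma called 8 of the 44 members, 0 higher and 8 lower, or 18.2%, where 10.3% of all probesets were called (6.67% higher and 3.59% lower). At an unadjusted p under 0.05 there were 17 (2 higher and 15 lower), or 38.6%, where 27.9% of all probesets were found (13.1% higher and 14.7% lower). The array lay below all 3 MEFs + DMSO arrays for 30 members (68.2%), where it did so for 45% of all probesets. Of the 44 differences 33 were below 0, against 58.9% of all probesets, and the median was -0.23, against -0.067 over all probesets. ADAMTS proteases made up 4 of the 8, with 16 of their 18 differences below 0 and a median of -0.41, and MMPs the other 4. This is the array with the B-lineage sum of 4610 and the lowest fibroblast sum. Of the 10 fibroblast markers, limma called Thy1 and Lum higher and Col1a2 lower there than in MEFs + DMSO, with a median difference of -0.16 over the 10, and the part of leukocyte RNA in its differences was not tested.

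Adamts12 read 9.89 in MEFs + ALL + DMSO, against 10.79, 10.74 and 10.71 in MEFs + DMSO, and fell by 0.86 on the log2 scale (SE 0.12, limma adjusted p = 0.00357). Adamts18 read 5.97, below the receptor level, against 6.84, 6.78 and 6.69 in MEFs + DMSO, and fell by 0.80 (adjusted p = 0.004). Mmp14 read 11.29 against 12.12, 12.06 and 12.06 in MEFs + DMSO, and fell by 0.79 (adjusted p = 0.019). Adamts10 read 9.55 against 10.18, 10.13 and 10.14 in MEFs + DMSO, and fell by 0.60 (adjusted p = 0.00829). These 4 genes passed the test in all 9 alternatives that were run, including the omission of each MEFs + DMSO array. The other 4 were called with all MEFs + DMSO arrays but missed the threshold when any of them was left out. They were the procollagen N-proteinase Adamts3, which fell by 0.54 (adjusted p = 0.0328), Mmp9, which fell by 0.42 (0.0215), Mmp2, which fell by 0.36 (0.0222), and Mmp16, which fell by 0.35 (0.04999).

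Mmp9 read 6.23 in MEFs + ALL + DMSO, just under the receptor level, against 6.65, 6.61 and 6.66 in MEFs + DMSO. Mmp2 read 12.45, against 12.82, 12.81 and 12.80 in MEFs + DMSO. Each value lay below all 3 MEFs + DMSO arrays. Among members that missed the threshold, Adamts6 differed by -0.58, Adamts16 by -0.46, Adamts13 by -0.45, Adamts14 by -0.41, Adamts20 by -0.41, Mmp25 by -0.34 and Adamts8 by -0.31, with adjusted p from 0.0564 to 0.144. The sole members above 0 at an unadjusted p under 0.05 were Mmp19 at 0.23 (adjusted p = 0.151) and Timp1 at 0.26 (0.109), which read 12.63 in MEFs + ALL + DMSO. Timp2 differed by -0.07 and Timp3 by 0.02.

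Nilotinib in the presence of ALL cells was compared as MEFs + ALL + nilotinib over MEFs + ALL + DMSO. Limma called 1 member, Mmp9, or 2.27%, where 4.34% of all probesets were called (0.582% higher and 3.76% lower). It read 6.64, 6.77 and 6.71 in MEFs + ALL + nilotinib, against 6.23 in MEFs + ALL + DMSO, and rose by 0.48 (SE 0.09, adjusted p = 0.0175). The call was lost without replicate 3 of MEFs + ALL + nilotinib, and also with only the 2 groups compared in the fit. With Mmp9, 9 members (20.5%) had an unadjusted p under 0.05 and all were above 0, where 17.7% of all probesets had one and 9.07% were above 0. The other 8 were Adamts9 at 0.37, Adamts10 at 0.35, Adamts15 at 0.33, Adamts18 at 0.33, Adamts12 at 0.32, Adamts14 at 0.32, Mmp23 at 0.20 and Mmp2 at 0.19. In total 41 of the 44 differences were above 0, against 61.1% of all probesets, and all of them rest on the single array with the B-lineage sum of 4610. The value of Adamts9 also rests on its chosen probeset, since its 6 probesets ran from -0.09 to 0.37 here, 3 below 0 and 3 above, with a median of 0.04.

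Whether the difference with ALL cells depended on the drug was tested as an interaction. It rests on the single MEFs + ALL + DMSO array, with the B-lineage sum of 4610 and the lowest fibroblast sum. A low value on that array alone places a gene above 0 here. Limma called 0 members, where 3.95% of all probesets were called, and 8 members (18.2%) had an unadjusted p under 0.05, all above 0, that is, less negative or more positive with nilotinib, where 19.5% of all probesets had one and 9.23% were above 0. They were Mmp14 at 0.68 (adjusted p = 0.117), Adamts3 at 0.61 (0.0758), Adamts12 at 0.56 (0.0942), Adamts9 at 0.53 (0.134), Adamts14 at 0.48 (0.131), Adamts10 at 0.41 (0.13), Mmp9 at 0.36 (0.121) and Adamts18 at 0.35 (0.229). Without replicate 1 of MEFs + nilotinib 3 members passed. For Mmp19 the interaction was 0.04 and for Timp1 -0.13.

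The 4 genes that passed in every alternative against MEFs + DMSO in the MEFs + ALL + DMSO array lie on different chromosomes, and the bases before the start sites of the 3 with a window in the RefSeq promoter table (GRCm38.p6) are shown so that their base composition and motifs can be read beside their values. Each run covers the 250 bases up to the base before the start, 5′ to 3′ on the strand of the gene. Capitals mark the letters AGGAAG, a core recognised by ETS factors, and GGGCGG, a GC box, on either strand. AGGAAG or its complement CTTCCT occurred in 29.5% of all 32851 windows of this length and GGGCGG or CCGCCC in 32.7%.
Adamts12 (chr15:11064523-11064772, + strand): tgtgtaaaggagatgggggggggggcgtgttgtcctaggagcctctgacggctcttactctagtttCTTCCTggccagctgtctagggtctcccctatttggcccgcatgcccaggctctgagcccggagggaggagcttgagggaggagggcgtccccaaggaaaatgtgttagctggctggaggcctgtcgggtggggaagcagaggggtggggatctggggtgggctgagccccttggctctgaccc
Adamts18 (chr8:113848840-113849089, - strand): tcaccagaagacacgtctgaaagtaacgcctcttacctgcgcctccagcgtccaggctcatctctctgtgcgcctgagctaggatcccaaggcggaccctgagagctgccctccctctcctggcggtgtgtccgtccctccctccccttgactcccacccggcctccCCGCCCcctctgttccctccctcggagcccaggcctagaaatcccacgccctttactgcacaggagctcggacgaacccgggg
Mmp14 (chr14:54431348-54431597, + strand): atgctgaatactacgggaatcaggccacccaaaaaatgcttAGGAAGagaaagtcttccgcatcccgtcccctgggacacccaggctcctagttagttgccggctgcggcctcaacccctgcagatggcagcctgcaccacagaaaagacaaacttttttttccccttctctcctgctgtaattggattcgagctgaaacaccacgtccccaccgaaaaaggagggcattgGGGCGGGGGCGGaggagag
In Adamts12 the ETS-type letters began 184 bases before the start, and in Mmp14 209 bases before it. Mmp14 had GC box letters at 19 and 13 bases before the start and Adamts18 at 83. Neither motif occurred in all 3 windows, and a match is a description of letters, not a bound site.

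The secreted collagenases, stromelysins and their relatives are mostly neighbours. In the RefSeq annotation 10 MMP genes follow each other on chromosome 9 with no other protein-coding gene between them, in the order Mmp13, Mmp12, Mmp1b, Mmp3, Mmp1a, Mmp10, Mmp8, Mmp27, Mmp20 and Mmp7. Limma called 0 of these 10 in each of the 6 comparisons, and 0 had an unadjusted p under 0.05. Over all probesets, 0.627% were called and 16.2% had an unadjusted p under 0.05 in MEFs + ALL + nilotinib over MEFs + DMSO. In MEFs + ALL + DMSO over MEFs + DMSO the shares were 10.3% and 27.9%. Mmp1a, Mmp1b, Mmp8, Mmp27, Mmp20 and Mmp7 were not above the receptor level in any group, and Mmp3 and Mmp10 not in every group. For these genes the 0 says little. Differences of the 10 genes ran from -0.13 to 0.41 in MEFs + ALL + nilotinib over MEFs + DMSO (median 0.07) and from -0.28 to 0.33 in MEFs + ALL + DMSO over MEFs + DMSO (median 0.01). Mmp13, the main collagenase of mouse fibroblasts and bone cells, read 8.78, 8.56 and 8.83 in MEFs + ALL + nilotinib, 8.57 in MEFs + ALL + DMSO, 8.41, 8.73 and 8.58 in MEFs + nilotinib and 8.64, 8.47 and 8.28 in MEFs + DMSO. Mmp12, the elastase known from macrophages, read 10.36, 9.92 and 10.29 in MEFs + ALL + nilotinib, 10.33 in MEFs + ALL + DMSO, 9.94, 10.38 and 10.19 in MEFs + nilotinib and 10.09, 10.10 and 9.79 in MEFs + DMSO. The groups overlapped for Mmp13. For Mmp12 the groups of 3 arrays overlapped with each other, and the MEFs + ALL + DMSO array lay above all 3 MEFs + DMSO arrays. All 8 macrophage markers and all 7 pan-leukocyte genes were above the receptor level in every group, MEFs + DMSO included. The cell type behind the Mmp12 signal was not tested.

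Mmp3, stromelysin-1, which cleaves proteoglycans and activates other MMPs, had the largest SE of the cluster. It read 6.57, 6.16 and 6.61 in MEFs + ALL + nilotinib, 6.29 in MEFs + ALL + DMSO, 5.56, 6.26 and 6.35 in MEFs + nilotinib and 6.23, 6.07 and 5.80 in MEFs + DMSO. With an SE of 0.22, its difference of 0.41 over MEFs + DMSO had an adjusted p of 0.398. On replicate 2 of MEFs + ALL + nilotinib, which stood apart above, Mmp3, Mmp12 and Mmp13 were each lower than on the other arrays of that group.

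Several MMP promoters are known for a site of the inducible factor AP-1 close to a TATA box, and 6 of the 10 genes of the cluster, all but Mmp12, Mmp8, Mmp27 and Mmp20, had the letters of both before their start. The AP-1 letters TGACTCA or their reverse complement TGAGTCA were found in the 250 bases before the start of 7 of the 30 members with a promoter window, all 7 in the cluster, and in 4.46% of all windows. TATAAA or TTTATA was found in 9 of the 30 members and in 12.4% of all windows. The runs below are printed because they are what these 7 genes share, 5′ to 3′ on the strand of the gene, with AP-1 and TATA letters in capitals and each run ending at or before the base preceding the start (RefSeq, GRCm38.p6).
Mmp13 (chr9:7272464-7272513, + strand): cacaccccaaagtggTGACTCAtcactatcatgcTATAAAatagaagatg
Mmp12 (chr9:7347315-7347373, + strand): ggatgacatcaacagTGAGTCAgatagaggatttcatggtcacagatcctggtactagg
Mmp1b (chr9:7388055-7388134, - strand): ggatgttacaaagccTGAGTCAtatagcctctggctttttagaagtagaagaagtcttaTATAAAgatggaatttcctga
Mmp3 (chr9:7445761-7445821, + strand): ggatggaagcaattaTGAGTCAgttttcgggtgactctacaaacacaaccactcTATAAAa
Mmp1a (chr9:7464053-7464132, + strand): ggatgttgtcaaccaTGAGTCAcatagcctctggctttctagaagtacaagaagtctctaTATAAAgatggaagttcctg
Mmp10 (chr9:7502264-7502341, + strand): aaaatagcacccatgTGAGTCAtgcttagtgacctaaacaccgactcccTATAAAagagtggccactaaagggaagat
Mmp7 (chr9:7692012-7692089, + strand): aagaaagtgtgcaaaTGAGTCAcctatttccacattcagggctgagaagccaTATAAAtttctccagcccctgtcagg
The AP-1 letters began 35 bases before the start in Mmp13, 44 in Mmp12, 46 in Mmp3, 63 in Mmp10 and Mmp7, 73 in Mmp1a and 93 in Mmp1b. All but the Mmp12 run also hold TATAAA downstream of them. Mmp12 and Mmp7 have 2 start sites each in the table, and the match lies before 1 of them. None of these 7 genes passed a test here, and Mmp1a, Mmp1b and Mmp7 were not above the receptor level in any group. For the other windows, no match says only that these letters are not in the window.

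Adamts3, Adamts9 and Adamts17 have several probesets with their symbol, which allowed the chosen probeset to be set beside the others. Adamts3, which removes the N-terminal propeptide of procollagens and processes the lymphangiogenic factor VEGF-C, had 16. In MEFs + ALL + nilotinib over MEFs + DMSO, 8 of the 16 lay below 0 and 8 above, with a median of 0.01 against the -0.25 of the chosen probeset. In MEFs + ALL + DMSO over MEFs + DMSO 14 of 16 lay below 0, with a median of -0.21, and 2 passed the test. In MEFs + nilotinib over MEFs + DMSO 12 of 16 lay below 0, with a median of -0.07. The difference of Adamts3 with ALL cells and nilotinib thus depended on the probeset read, and the mean of all 16 gave 0.02 (adjusted p = 0.909). For the interaction, which rests on the single MEFs + ALL + DMSO array, 15 of the 16 lay above 0. They ran from -0.02 to 0.67 with a median of 0.34, beside 0.61 at the chosen probeset. Whether Adamts3 passed in the interaction also depended on the probeset read. For Adamts17 all 5 probesets lay below 0 over MEFs + DMSO, from -0.26 to -0.03 in MEFs + ALL + nilotinib and from -0.40 to -0.25 in MEFs + ALL + DMSO, and 0 passed. The 6 probesets of Adamts9 lay between -0.07 and 0.13 in MEFs + ALL + nilotinib over MEFs + DMSO. Over MEFs + nilotinib they ran from 0.04 to 0.29 with a median of 0.09, and the chosen probeset, at 0.29, was the highest. For the interaction they ran from -0.01 to 0.53 with a median of 0.13, and the chosen probeset, at 0.53, was again the highest.

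**Figure D5:**
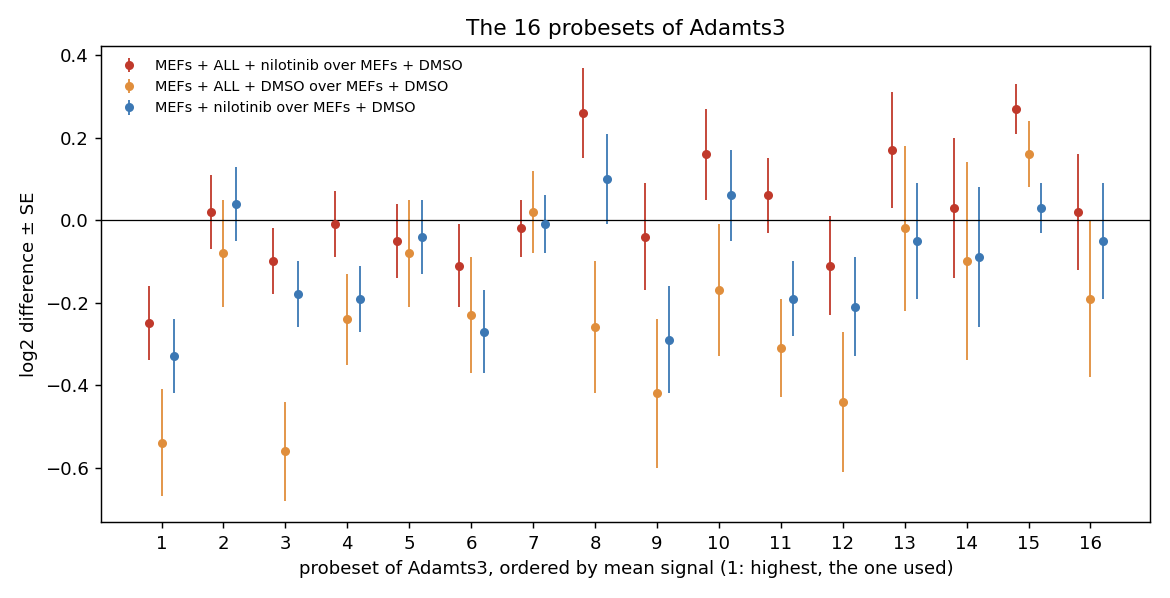
Log2 difference ± SE (vertical axis) at each of the 16 probesets of Adamts3 (horizontal axis, ordered from the highest to the lowest mean signal) in 3 comparisons. In MEFs + ALL + nilotinib over MEFs + DMSO the points fall on both sides of 0 (8 below and 8 above), and in MEFs + ALL + DMSO over MEFs + DMSO 14 lie below 0.

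Other genes of the same pathways were counted in 5 lists. Over all probesets, limma called 0.503% higher and 0.124% lower in MEFs + ALL + nilotinib over MEFs + DMSO. The median difference over all probesets in that comparison was -0.004. In MEFs + ALL + DMSO over MEFs + DMSO, 6.67% were called higher and 3.59% lower. Those calls rest on the single MEFs + ALL + DMSO array, with a pan-leukocyte sum of 10296, and the part of leukocyte RNA was not tested. Of 14 measured activators and regulators of proteolysis at the cell surface, 1 rose in MEFs + ALL + nilotinib over MEFs + DMSO and 0 fell, with a median of 0.18. It was Plau, the urokinase plasminogen activator, at 0.57 (SE 0.06, limma adjusted p = 0.0136), which also rose over MEFs + nilotinib, by 0.51 (0.0305). Its counterpart Plat, the tissue plasminogen activator, differed by 0.40 over MEFs + DMSO (0.0592). In MEFs + ALL + DMSO over MEFs + DMSO, Bsg, an inducer of MMPs at the cell surface, rose by 0.44 (0.0273) and Plg, the plasminogen gene, fell by 0.52 (0.016).

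Of 13 substrates, 1 fell in MEFs + ALL + nilotinib over MEFs + DMSO and 0 rose, where 0.124% of all probesets were called lower. Eln, the elastin gene, fell by 0.79 (limma adjusted p = 0.0292). In MEFs + ALL + DMSO over MEFs + DMSO, 3.59% of all probesets were called lower. The falls in that comparison rest on the single MEFs + ALL + DMSO array, and the part of leukocyte RNA in them was not tested. Acan read 6.27 on it, just under the receptor level, against a mean of 7.04 in MEFs + DMSO. At that level the Acan probeset cannot be read as expression of its gene, which limits what its fall shows. On the MEFs + ALL + DMSO array 3 were lower than in MEFs + DMSO: Eln fell by 1.32 (0.00104), Acan, the aggrecan gene, fell by 0.76 (0.0204) and Col1a2, a chain of type I collagen, fell by 0.66 (0.0419). Of 6 ADAMTS-like genes, whose proteins lack the protease domain, Adamtsl3 fell on that array by 0.75 (0.0301), and 0 passed in MEFs + ALL + nilotinib over MEFs + DMSO. Of 8 membrane ADAM proteases 0 passed in any comparison, where 0% to 10.3% of all probesets were called.

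Of 13 genes in a list of MMP inducers and their regulators, Il1rn, which encodes the antagonist of the interleukin-1 receptor and is itself no inducer, rose by 0.64 in MEFs + ALL + nilotinib over MEFs + DMSO (limma adjusted p = 0.0182), and the other 12 did not pass. The Tnf and Il6 values that follow rest on the single MEFs + ALL + DMSO array. Its pan-leukocyte sum was 10296, against 3362 to 3716 in MEFs + DMSO, and the part of leukocyte RNA in these values was not tested. On the MEFs + ALL + DMSO array the cytokine genes Tnf and Il6 were higher than in MEFs + DMSO, Tnf by 1.04 (0.00373) and Il6 by 1.08 (0.0408). Tnf was lower in MEFs + ALL + nilotinib than on that array, by a log2 difference of -1.02 (0.00539), and its interaction was -1.13 (0.0113).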

How the data were processed

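RNA of 10 dishes was measured on Mouse Gene 1.0 ST arrays. The authors deposited log2 signals of 35557 probesets, which a figure legend calls RMA-normalized and which their processing notes credit to Partek, with no version stated. Genes were named from the platform annotation where a probeset had 1 symbol (21789 probesets), and all 44 members matched RefSeq (GRCm38.p6) by gene ID. Limma 3.58.1 under R 4.3.3 compared the 4 group means over all 10 arrays (lmFit, eBayes), with Benjamini-Hochberg adjustment over all probesets and a threshold of 0.05. On simulated data, changes were put into the MEFs + ALL + nilotinib arrays and scored in MEFs + ALL + nilotinib over MEFs + DMSO. Calls were also counted in MEFs + nilotinib over MEFs + DMSO, and the other comparisons, with the interaction, were not scored. Members are named with a difference where the adjusted or unadjusted p is under 0.05 or the log2 difference at least 0.5 in size, and the others by level, range or family, some with a difference for contrast. The members and lists were chosen with earlier results of these data known. Alternatives were the 2 groups alone, trend and robust moderation, array weights, quantile normalization, median centring, a filter on dim probesets, all probesets of a gene, ratios of anti-logged means, a replicate block and the omission of each replicate. The value of 1 pan-leukocyte gene is not given. The number of arrays limits the precision.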

Additional observations from a re-analysis of the deposited data

How the results depend on the processing

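Every member difference with an adjusted or unadjusted p under 0.05 kept its direction under all alternatives except 1: with the mean of its probesets, Adamts3 differed by 0.02 in MEFs + ALL + nilotinib over MEFs + DMSO. Members called there numbered 2, against 0 with only the 2 groups compared in the fit, 7 with array weights, 1 with quantile normalization, 4 without the dimmest 25% of probesets, 0 with the replicate block and 0 to 0 with each replicate left out. The cause was not tested. Members called in MEFs + ALL + DMSO over MEFs + DMSO numbered 8, against 4 with only the 2 groups, 13 with array weights and 4 to 4 with each MEFs + DMSO replicate left out. In MEFs + ALL + nilotinib over MEFs + ALL + DMSO there was 1, against 0 with only the 2 groups and 0 to 1 with each replicate left out. In the interaction there were 0, against 3 with array weights and 0 to 3 with each replicate left out.

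Over all probesets, 223 were called in MEFs + ALL + nilotinib over MEFs + DMSO, against 12 with only the 2 groups, 476 with trend and robust moderation, 1263 with array weights, 421 without the dimmest 25%, 8 with the replicate block and 8 to 99 with each replicate left out. Over MEFs + nilotinib 66 were called, against 4, 117, 141, 115 and 12 in the same order of alternatives and 12 to 36 with each replicate left out. In MEFs + nilotinib over MEFs + DMSO there were 0, with 3985 at an unadjusted p under 0.05, and 0 to 57 with each replicate left out, the 57 without replicate 1 of MEFs + nilotinib. In MEFs + ALL + DMSO over MEFs + DMSO there were 3651, against 6615 with array weights and 2137 to 2491 with each replicate left out. In MEFs + ALL + nilotinib over MEFs + ALL + DMSO 1543 were called, against 535 with only the 2 groups and 1178 to 1540 with each replicate left out. For the interaction there were 1406, against 2323 with array weights and 1008 to 1932 with each replicate left out.

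Replicate numbers name dishes only. Deviations of arrays with the same number correlated between -0.293 and 0.241 over 9 pairs, and 0 of 9 arrays correlated best with their own number in both other groups, so the block was not used in the comparisons reported. Omitting the only MEFs + ALL + DMSO array leaves its comparisons without a value. Members at or below the receptor level of 6.29 have signals that limit what their differences show.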
